A study of Mus musculus with 6 samples.

Results

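YAP and TAZ are the transcriptional arm of the Hippo pathway, and the 10 genes described here are both coactivators, their DNA-binding partners and a set of their best known targets. They were taken by symbol from the deposited expression table of 18849 genes. All 10 were found, namely Yap1, Wwtr1 (which encodes TAZ), Tead1, Tead2, Tead3, Tead4, Ccn1, Ccn2, Ankrd1 and Amotl2. The libraries were made from whole obstructed kidney of male C57BL/6 mice, 8 weeks old, in which the ureter of one kidney had been tied for 14 days (unilateral ureteral obstruction, UUO), a procedure that injures tubules and fills the kidney with scar matrix. There were 3 knockout libraries, from mice with floxed c-Abl (Abl1) alleles that also carried Ksp-Cre, and 3 floxed libraries, from mice described with the floxed alleles alone. The genotype labels read c-Abl knockdown and WT, and the group names used here follow the design text. Ksp-Cre is driven by the promoter of kidney-specific cadherin (Cdh16), so the deletion is restricted to tubule cells that use that promoter, while fibroblasts, vessels and immune cells in the same RNA keep Abl1. Every kidney was obstructed, so the comparison is between genotypes of injured kidney. The question behind it is what c-Abl in tubule cells does to transcription while the organ scars.

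When Hippo signalling is low, YAP and TAZ enter the nucleus and bind TEAD proteins, which recognise DNA and switch on genes for growth, adhesion and matrix. When it is high, the kinases LATS1 and LATS2 phosphorylate YAP and TAZ and hold them in the cytoplasm. In kidney, YAP and TAZ are known to act in injured tubule cells, in podocytes and in the fibroblasts that deposit scar. c-Abl itself is known to phosphorylate YAP on tyrosine, a step that messenger RNA does not report.

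TEADs are the DNA-binding part of the complex, so the promoters were searched for their motif. RefSeq promoters (GRCm38.p6) were on hand for 7 of the 10 genes. Ccn2, Tead1 and Tead4 had no entry. The 250 bases before each annotated start were searched on both strands for the TEAD motif, GGAATG, which reads CATTCC on the other strand. The promoters of 6 of the 7 genes held it (Ankrd1, Ccn1, Amotl2, Yap1, Wwtr1 and Tead3), and Tead2 did not. Counted by start site, 8 of 10 windows held it, against 12.6% of all 32851 promoter windows in the table. The 2 windows of Wwtr1 overlap and share a motif, so windows of one gene are not independent. Ankrd1, Ccn1 and Amotl2 were in the set as known YAP and TAZ targets, so the count is not an independent finding about the set. Neither the AP-1 motif TGANTCA nor the CArG box of SRF was present in any of the 10 windows. Only 6.75% and 1.47% of all windows held them, so their absence from 10 windows sets these genes apart in no way. A match is a run of letters and says nothing about occupancy, which was not measured. The promoters of the 3 targets with an entry and that of Yap1 are printed 5′ to 3′ on the strand of the gene, with the TEAD motif in capitals.
Ankrd1, chr19:36119845-36120094, minus strand: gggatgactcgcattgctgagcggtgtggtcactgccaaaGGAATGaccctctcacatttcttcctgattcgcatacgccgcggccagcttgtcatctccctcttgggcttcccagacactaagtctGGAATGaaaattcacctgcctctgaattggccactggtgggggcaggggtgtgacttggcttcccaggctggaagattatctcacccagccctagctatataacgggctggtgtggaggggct
Ccn1, chr3:145649986-145650235, minus strand: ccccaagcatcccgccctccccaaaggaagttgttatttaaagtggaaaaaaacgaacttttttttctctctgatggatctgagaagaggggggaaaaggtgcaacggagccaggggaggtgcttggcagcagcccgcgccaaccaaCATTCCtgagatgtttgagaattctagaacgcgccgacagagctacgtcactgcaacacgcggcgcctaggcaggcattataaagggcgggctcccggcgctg
Amotl2, chr9:102717554-102717803, plus strand: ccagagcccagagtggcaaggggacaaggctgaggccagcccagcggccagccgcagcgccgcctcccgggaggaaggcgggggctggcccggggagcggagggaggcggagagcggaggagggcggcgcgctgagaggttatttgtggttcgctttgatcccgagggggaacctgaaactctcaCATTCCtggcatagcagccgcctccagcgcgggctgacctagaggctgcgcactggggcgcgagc
Yap1, chr9:8004597-8004846, minus strand: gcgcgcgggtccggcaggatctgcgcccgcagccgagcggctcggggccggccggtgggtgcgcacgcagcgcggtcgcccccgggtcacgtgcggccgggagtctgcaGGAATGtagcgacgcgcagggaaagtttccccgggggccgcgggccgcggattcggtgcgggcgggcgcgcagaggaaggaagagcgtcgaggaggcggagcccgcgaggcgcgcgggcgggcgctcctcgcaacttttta
In Ankrd1 the motif stood in the gene's orientation at 210 to 205 and again at 123 to 118 bases before the start. In Ccn1 it lay on the opposite strand at 103 to 98 bases, and in Amotl2 on the opposite strand at 65 to 60 bases. Yap1 carried it in the gene's orientation at 141 to 136 bases before its start.

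**Figure D1:**
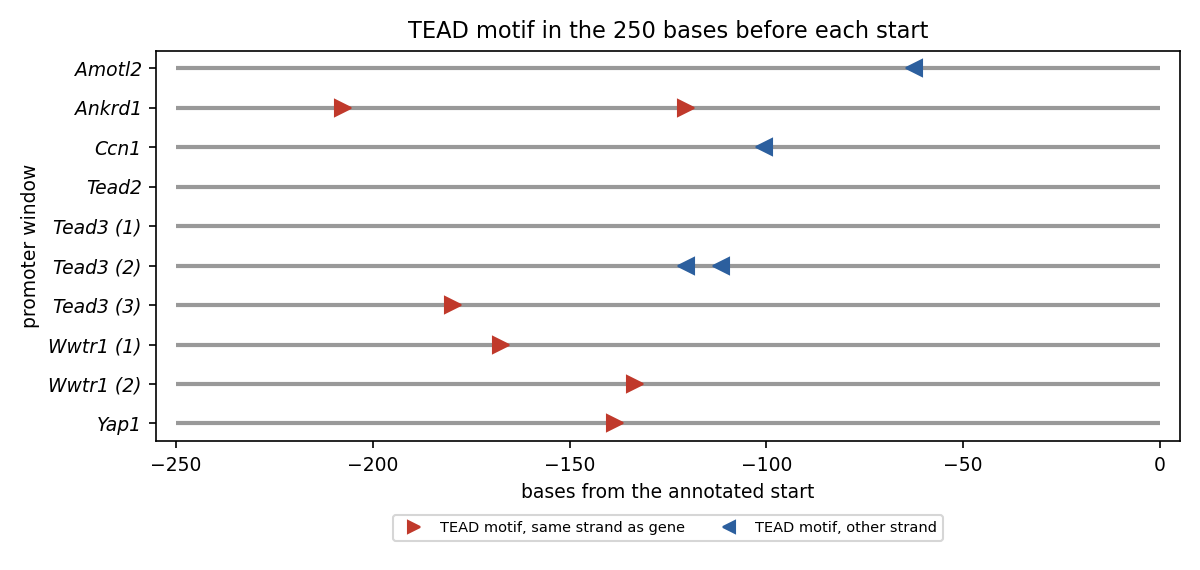
Position of the TEAD motif in the 250 bases before each of the 10 annotated starts of 7 genes (x axis, bases from the start), with 1 line per start and numbered lines where a gene has several starts. Arrows pointing right are on the strand of the gene and arrows pointing left on the other strand. Ankrd1 and the second Tead3 window hold 2 motifs each, and Tead2 and the first Tead3 window hold none.

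Expression is given as FPKM, fragments relative to gene length and to the mapped fragments of the library, which allows levels of different genes to be set side by side. Low values were spaced as if there were 15850000 to 17200000 fragments per knockout library and 16250000 to 17950000 per floxed library, an approximate figure, least sure for floxed replicate 1, under which 1 FPKM in a transcript of 2 kb stands for 31.7 to 35.9 fragments. Abl1 read 10.46, 14.45 and 12.91 FPKM in knockout replicates 1, 2 and 3, against 18.16, 15.93 and 17.33 FPKM in floxed replicates 1, 2 and 3 (limma adjusted p = 0.144). Abl2 averaged 4.60 ± 0.850 FPKM in knockout and 5.63 ± 0.384 FPKM in floxed kidneys, and Cdh16 321 ± 61.0 and 216 ± 17.3 FPKM (SD, n = 3 each). Kidney identity was plain from markers of the proximal tubule, which summed to between 3930 and 39645 FPKM in knockout and between 4757 and 13481 FPKM in floxed libraries. Knockout replicate 3 stood apart from the other knockout libraries. On the first principal component, with 61.8% of the variance, it lay at -7.48, on the floxed side, where floxed libraries lay at -29.0 to -26.2 and knockout replicates 1 and 2 at 54.1 and 37.4.

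Across the 10 genes, the mean levels of the targets were lower in knockout kidneys and those of the coactivators differed less. This contrast was not tested. Mean levels of Ccn1, Ccn2 and Ankrd1 were 74.8%, 72.3% and 74.5% below the floxed means, Amotl2 was 35.5% below, Yap1 15.9% below and Wwtr1 0.840% below. Among the TEAD genes Tead2 had a mean 56.9% below that of floxed kidneys, Tead3 23.2%, Tead1 22.4% and Tead4 35.7% below. None of these differences passed the limma test across the whole table. In whole kidney, fewer cells of a type and less RNA per cell cannot be told apart.

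Of the 10 genes, 9 had at least 1 FPKM in at least 3 libraries and were tested, and each of the 9 was above that level in all 6 libraries. Tead4 was not tested. At a limma adjusted p under 0.05, 0 of the 9 passed, where 0.0672% of all 13390 tested genes did. At an unadjusted limma p under 0.05, 6 of the 9 were lower (Ccn1, Ccn2, Ankrd1, Amotl2, Tead2 and Tead3) and 0 higher, against 16.3% of all genes lower and 8.38% higher. For 5 of the 9 every knockout library lay below every floxed library, against 21.7% of all genes. The median log2 fold change of the 9 was -0.60, and that of all tested genes -0.12. All 9 had a log2 fold change below 0, as did 65.4% of all genes. Fold changes are knockout minus floxed on the log2(FPKM + 1) scale.

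**Figure D2:**
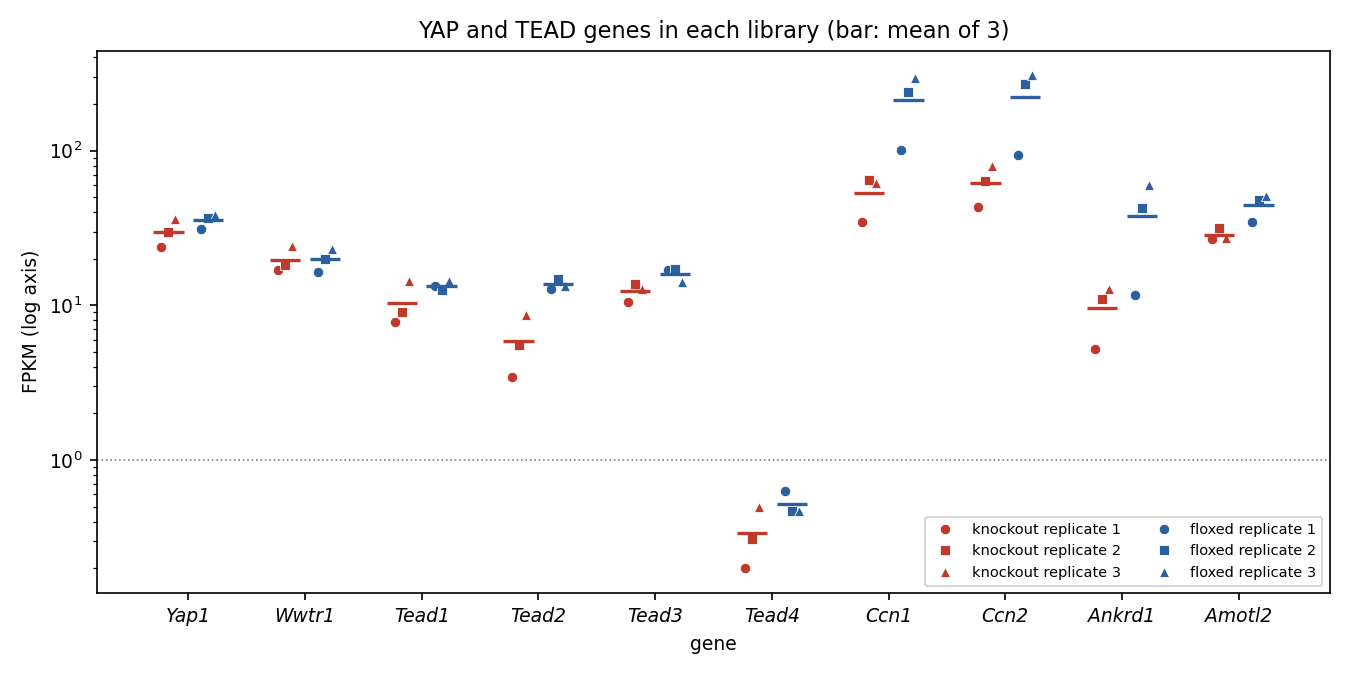
FPKM of the 10 genes (y axis, log scale) in each of the 3 knockout libraries (red, left) and 3 floxed libraries (blue, right), with the replicate number as marker shape and a bar at each mean of 3. Knockout points lie below all floxed points for Tead2, Tead3, Ccn1, Ccn2 and Amotl2, and the dotted line marks the level of 1 FPKM used as a filter, which Tead4 does not reach.

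Yap1 encodes YAP, the founding coactivator of the pair. It read 23.75, 29.8 and 36.02 FPKM in knockout replicates 1, 2 and 3, against 31.19, 36.91 and 38.37 FPKM in floxed replicates 1, 2 and 3. The groups overlapped, since knockout replicate 3 lay inside the floxed range. The log2 fold change was -0.26 (SE 0.173, 95% interval -0.67 to 0.15, limma adjusted p = 0.378).

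Wwtr1 encodes TAZ, the paralogue of YAP. Its values were 16.87, 18.13 and 24.01 FPKM in knockout kidneys and 16.45, 19.99 and 23.07 FPKM in floxed kidneys. The groups overlapped over almost their whole range. Its log2 fold change of -0.01 (SE 0.180, limma adjusted p = 0.965) had a 95% interval of -0.44 to 0.41, and its sign turned under median-ratio and quantile scaling. The ratio of Wwtr1 to Yap1, which no scaling factor of a library can alter, was 0.710, 0.608 and 0.667 in knockout replicates 1, 2 and 3 and 0.527, 0.542 and 0.601 in floxed replicates 1, 2 and 3. Every knockout ratio was above every floxed ratio, by a narrow margin between knockout replicate 2 and floxed replicate 3. In these libraries Wwtr1 was thus a somewhat greater part of the pair's summed FPKM in knockout, a difference that was not tested.

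The TEAD proteins share a DNA-binding domain and a domain that holds YAP or TAZ. Tead2, a TEAD most prominent in embryonic tissue, read 3.44, 5.57 and 8.65 FPKM in knockout replicates 1, 2 and 3, against 12.75, 14.86 and 13.38 FPKM in floxed replicates 1, 2 and 3. All knockout libraries were below all floxed libraries, and replicate 3 was the least low. The log2 fold change was -1.16 (SE 0.271, 95% interval -1.80 to -0.52), with a limma adjusted p of 0.0820 for all 6 libraries. Without knockout replicate 3 it was 0.00664, where 15.4% of all genes passed as lower. That library was left out for its place near the floxed group, a choice that by itself favours a lower p. Without knockout replicate 1 or 2 the limma adjusted p of Tead2 was 0.167 or 0.256.

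Tead1 read 7.78, 9 and 14.33 FPKM in knockout kidneys and 13.28, 12.55 and 14.28 FPKM in floxed kidneys. Knockout replicate 3 was the highest of all 6 libraries and replicates 1 and 2 were the lowest, so the result turned on that library. The log2 fold change was -0.38 (limma adjusted p = 0.303). Without knockout replicate 3 it was -0.62 (limma adjusted p = 0.0207), where 15.4% of all genes passed as lower. Without knockout replicate 1 or 2 the limma adjusted p of Tead1 was 0.648 or 0.541. Tead3 read 10.51, 13.65 and 12.82 FPKM in knockout against 16.94, 17.14 and 14.05 FPKM in floxed kidneys, without overlap (log2 fold change -0.36, SE 0.144, limma adjusted p = 0.190). Tead4, the TEAD known for its part in the trophectoderm of the early embryo, was scarcely present, at 0.2, 0.31 and 0.5 FPKM in knockout and 0.63, 0.47 and 0.47 FPKM in floxed kidneys.

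Within the TEAD pool, Tead2 supplied 15.7%, 19.5% and 23.8% of the summed TEAD FPKM in knockout replicates 1, 2 and 3, against 29.2%, 33.0% and 31.7% in floxed replicates 1, 2 and 3. The groups did not overlap, and as a share within a library this does not depend on scaling. Tead3 was the most abundant TEAD on average in both groups, with 43.7 ± 7.26% of the sum in knockout and 36.74 ± 3.001% in floxed kidneys, and Tead1 supplied 35.5 ± 3.97% and 30.7 ± 2.998% (SD, n = 3 each). Tead1 was above Tead3 in knockout replicate 3 (39.5% against 35.3%) and in floxed replicate 3 (33.9% against 33.3%). The groups overlapped for the shares of Tead1, Tead3 and Tead4. None of these shares was tested. The summed level was 21.93, 28.53 and 36.3 FPKM in knockout and 43.6, 45.02 and 42.18 FPKM in floxed kidneys.

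The targets begin with Ccn1 and Ccn2. Ccn1 (CYR61) is a secreted matricellular protein that binds integrins and responds quickly to serum and stretch. It read 34.33, 64.72 and 61.34 FPKM in knockout replicates 1, 2 and 3, against 100.48, 239.26 and 296.07 FPKM in floxed replicates 1, 2 and 3. All 3 knockout libraries lay below the lowest floxed library, replicate 1, which had less than the other floxed libraries by a wide margin. The mean was 53.5 ± 16.7 FPKM in knockout and 212 ± 101 FPKM in floxed kidneys (SD, n = 3 each), and the log2 fold change -1.88 (SE 0.431, 95% interval -2.90 to -0.86, limma adjusted p = 0.0797).

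Ccn2 (connective tissue growth factor) is a relative of Ccn1 long used as a marker of scarring. It read 43.4, 63.66 and 78.99 FPKM in knockout and 93.09, 270.99 and 306.37 FPKM in floxed kidneys. The order of libraries was close to that of Ccn1, with floxed replicate 1 again the lowest of its group and just above the knockout libraries. The log2 fold change was -1.70 (SE 0.463, 95% interval -2.80 to -0.60, limma adjusted p = 0.102). Without knockout replicate 3 both CCN genes passed, Ccn1 at a limma adjusted p of 0.0346 and Ccn2 at 0.0460. In that fit 15.4% of all genes passed as lower and 9.02% as higher. The library was left out for its place near the floxed group, which by itself favours a lower p. Without knockout replicate 1 or 2 the limma adjusted p was 0.210 or 0.224 for Ccn1 and 0.270 or 0.279 for Ccn2.

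Ankrd1 encodes an ankyrin repeat protein of striated muscle that other cells make under stretch or injury, and it is a standard readout of YAP activity. It read 5.22, 11.07 and 12.71 FPKM in knockout replicates 1, 2 and 3, against 11.61, 42.33 and 59.9 FPKM in floxed replicates 1, 2 and 3. The groups overlapped, because floxed replicate 1 lay between knockout replicates 2 and 3. The log2 fold change of -1.67 (SE 0.596, 95% interval -3.08 to -0.26, limma adjusted p = 0.155) was -2.35 without floxed replicate 1 (limma adjusted p = 0.111). Markers of striated muscle were near 0 in all libraries. Of the 8 listed, 7 were in the table, none reached the filter, and they summed to at most 1.16 FPKM in knockout and 1.98 FPKM in floxed libraries. Myh4 was not analysed here.

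Amotl2 is an angiomotin, a scaffold of cell junctions that binds YAP and holds it out of the nucleus while being one of its targets. It read 26.84, 31.8 and 27.31 FPKM in knockout kidneys and 34.39, 48.12 and 50.8 FPKM in floxed kidneys. The groups did not overlap, and the knockout libraries were close together (28.7 ± 2.74 FPKM, against 44.4 ± 8.80 FPKM in floxed kidneys, SD, n = 3 each). Its log2 fold change was -0.60 (SE 0.171, limma adjusted p = 0.110).

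Ordered by level in knockout kidneys, Ccn2 and Ccn1 led, followed by Yap1, Amotl2, Wwtr1, Tead3, Tead1, Ankrd1, Tead2 and Tead4. In floxed kidneys the order was Ccn2, Ccn1, Amotl2, Ankrd1, Yap1, Wwtr1, Tead3, Tead2, Tead1 and Tead4. Of neighbours in these orders, Ccn2 and Ccn1 differed by less than the larger of their SDs in both groups. In knockout kidneys the same held for Yap1 and Amotl2, Tead3 and Tead1, Tead1 and Ankrd1, and Ankrd1 and Tead2. In floxed kidneys it held for Amotl2 and Ankrd1, Ankrd1 and Yap1, and Tead2 and Tead1. Ankrd1 stood at 9.67 ± 3.94 FPKM in knockout kidneys, beside the TEAD genes, and at 37.9 ± 24.4 FPKM in floxed kidneys, beside Yap1. The ratio of Ccn1 to Ccn2 was 0.861 ± 0.135 in knockout and 0.976 ± 0.0986 in floxed kidneys, and that of Ankrd1 to Ccn2 0.152 ± 0.0280 and 0.159 ± 0.0355 (SD, n = 3 each), and the libraries of the groups overlapped for both ratios.

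Ccn1, Ccn2 and Ankrd1 had closely similar profiles over the 6 libraries. Likeness was measured as the root mean square distance between log2(FPKM + 1) profiles after centring each gene on its mean over the 6 libraries. Of 13389 other genes, Ccn2 was the nearest to Ankrd1 (distance 0.205) and Ccn1 ranked 3 (0.260). Ccn2 and Ccn1 were each the nearest gene to the other (0.174), with Ankrd1 at rank 2 for both. Amotl2 ranked 611 from Ankrd1, Yap1 1726 and Wwtr1 3414. Genes with a narrow range cannot come close to one with a wide range on this measure, and Ankrd1 had the widest range of the tested members, 3.29 on the log2 scale. Outside the set, the genes nearest to Ankrd1 were LOC105244034 (0.226), the stress-induced transcription factor Atf3 (0.318) and the stress cytokine Gdf15 (0.340). Atf3 read 3.68, 7.73 and 17.79 FPKM in knockout replicates 1, 2 and 3, against 10.15, 37.03 and 43.56 FPKM in floxed replicates 1, 2 and 3. Gdf15 read 7.46, 9.19 and 11.26 FPKM in knockout and 10.08, 37.1 and 35.82 FPKM in floxed kidneys. These values describe 6 libraries and carry no test.

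Knockout replicate 3 and floxed replicate 1 were set against the floxed mean in log2(FPKM + 1). In knockout replicate 3, Yap1, Wwtr1 and Tead1 were 0.03, 0.28 and 0.10 above that mean, and Tead2 and Tead3 stood at -0.60 and -0.30. The targets Ccn1, Ccn2, Ankrd1 and Amotl2 were at -1.63, -1.31, -1.23 and -0.66 in that library, so Tead2 was about as low as Amotl2. In floxed replicate 1 the same targets were at -0.93, -1.08, -1.35 and -0.34, while Yap1, Wwtr1, Tead1, Tead2 and Tead3 were at -0.18, -0.24, -0.01, -0.09 and 0.08. Whether targets and factors differ in these libraries was not tested.

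**Figure D3:**
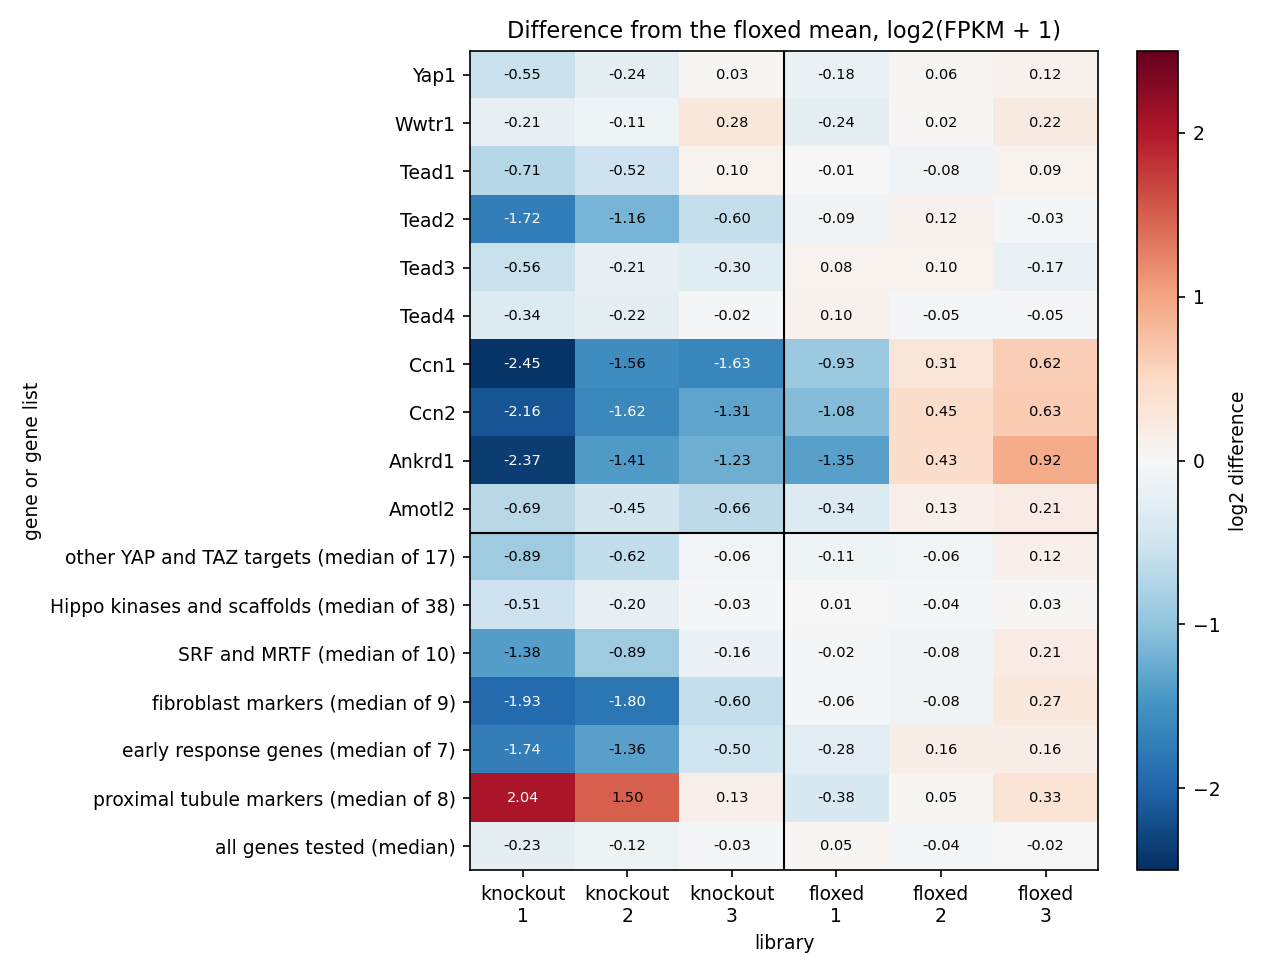
Difference of each library from the mean of the floxed libraries in log2(FPKM + 1) (color and printed value), for the 10 genes (upper rows) and as medians over gene lists and all tested genes (lower rows), with knockout libraries left of the line and floxed libraries right of it. Knockout replicate 3 is near the floxed mean for Yap1, Tead1 and the other YAP and TAZ targets, at -0.60 for Tead2 and at -1.63 for Ccn1, and floxed replicate 1 is low for Ccn1, Ccn2 and Ankrd1.

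Several other measures moved with these genes, and their part in the differences was not tested. Of 9 fibroblast markers, 0 passed the limma test and all 9 were below 0 in log2 fold change (65.4% of all genes were), with a list median of -1.38. They summed to 116 to 391.8 FPKM in knockout and 586 to 754 FPKM in floxed libraries, and none was at 0. Col1a1, the main collagen of scar, averaged 36.7 ± 32.4 FPKM in knockout and 113 ± 12.4 FPKM in floxed kidneys, and Acta2, the actin of myofibroblasts, 22.8 ± 16.8 and 51.8 ± 19.4 FPKM. All 8 proximal tubule markers were above 0, with a list median of 1.17. The fibroblast median was -1.93, -1.80 and -0.60 in knockout replicates 1, 2 and 3 relative to the floxed mean, and -0.06 in floxed replicate 1. Tead2 stood at -1.72, -1.16 and -0.60 in the knockout libraries and -0.09 in floxed replicate 1. Ccn1, at -2.45, -1.56 and -1.63 in the knockout libraries and -0.93 in floxed replicate 1, was below the fibroblast median in knockout replicates 1 and 3 and in floxed replicate 1, and above it in knockout replicate 2. Amotl2 was at -0.66 in knockout replicate 3. An early response list of Fos, Fosb, Jun, Junb, Egr1, Atf3, Ier2 and Nr4a1, chosen after the values were seen, summed to 88.2, 143 and 298 FPKM in knockout replicates 1, 2 and 3 and to 257, 355 and 364 FPKM in floxed replicates 1, 2 and 3. Atf3 is also among the genes nearest in profile to Ankrd1, so the list is not an independent measure. Of these 8 genes 7 were tested and 0 passed the limma test. All 7 were below 0 (65.4% of all genes were), with a median of -1.22. At an unadjusted limma p under 0.05, 4 were lower (16.3% of all genes were). The sum of knockout replicate 3 lay inside the floxed range, while the list median of -0.50 there lay below the floxed libraries, at -0.28 to 0.16.

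The remaining markers covered other cells of the kidney, and their counts stand beside 65.4% of all genes below 0 in log2 fold change. Of the 6 macrophage markers 5 were below 0 (list median -0.94, summed level 253 to 541 FPKM in knockout and 520 to 649 FPKM in floxed libraries), and all 7 smooth muscle and pericyte markers were (list median -0.67, 25.9 to 63.3 FPKM in knockout and 44.9 to 90.6 FPKM in floxed libraries). All 8 endothelial markers were below 0 with a median of -0.39 and sums of 114 to 145 FPKM in knockout and 120 to 228 FPKM in floxed libraries. All 6 podocyte markers were below 0 with a median of -0.64 and sums of 70.6 to 93.6 FPKM in knockout and 98.7 to 148 FPKM in floxed libraries. All 8 markers of the distal tubule and collecting duct were above 0, with a median of 1.07 and sums of 1150 to 2244 FPKM in knockout and 809 to 1010 FPKM in floxed libraries. Of 7 injured tubule markers 6 were below 0 (median -0.48), and they summed to 751 to 1971 FPKM in knockout and 1314 to 2153 FPKM in floxed libraries. The 5 tested urothelial markers of 6 were below 0, with a median of -0.85, and the list summed to 6.19 to 55.4 FPKM in knockout and 23.8 to 90.4 FPKM in floxed libraries. None of these markers was at 0 in every library, and none passed the limma test over all genes.

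Other genes of the pathway were taken from lists. Of 18 further YAP and TAZ targets, 17 were tested, 0 passed the limma test, 17 were below 0 (65.4% of all genes were) and 6 were lower at an unadjusted p under 0.05 (16.3% of all genes), with a median of -0.50 against -0.12 for all genes. Foxf2 was at 0.05 FPKM or less in every library. The 3 with the smallest p were Rbms3, an RNA-binding protein (2.67 ± 0.660 FPKM in knockout and 6.44 ± 0.675 FPKM in floxed kidneys, limma adjusted p = 0.0547), Ccdc80, a secreted matrix-associated protein (5.30 ± 3.38 and 22.2 ± 4.73 FPKM, limma adjusted p = 0.0547), and the Hippo kinase Lats2 (7.75 ± 0.898 and 14.2 ± 2.87 FPKM, limma adjusted p = 0.0722). The list median in knockout replicate 3 was -0.06, close to the floxed mean.

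The kinases and scaffolds upstream of YAP made up a list of 41. Of these, 38 were tested and 0 passed, 31 were below 0 and 7 above (65.4% of all genes were below), with a median of -0.25, and 9 changed sign under median-ratio scaling. At an unadjusted limma p under 0.05, 9 were lower and 1 higher, where 16.3% of all genes were lower and 8.38% higher. Lats2, which is itself a YAP target, and Ptpn14 stand both in this list and in that of other YAP and TAZ targets. Besides Lats2, the smallest p belonged to Wtip, a LIM protein of the Ajuba family that restrains LATS (16.3 ± 0.316 FPKM in knockout and 23.8 ± 1.04 FPKM in floxed kidneys, limma adjusted p = 0.0635), and Rassf2, a Ras association domain protein that binds the kinases MST1 and MST2 (5.77 ± 1.76 and 12.4 ± 2.12 FPKM, limma adjusted p = 0.0786). The 1 gene higher was the apical polarity protein Crb3, named after its values were seen (38.7 ± 1.21 and 29.9 ± 1.57 FPKM, limma adjusted p = 0.109). The kinases Lats1, Stk3 and Stk4 had log2 fold changes of -0.31, -0.36 and -0.33 and limma adjusted p of 0.220, 0.207 and 0.257.

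Vestigial-like proteins bind TEADs in place of YAP. Vgll3 read 0.71, 0.42 and 1.18 FPKM in knockout replicates 1, 2 and 3, against 1.96, 2.97 and 3.55 FPKM in floxed replicates 1, 2 and 3 (log2 fold change -1.11, limma adjusted p = 0.0704). The groups did not overlap. Only replicate 3 of the knockout libraries reached 1 FPKM, so Vgll3 met the filter through the floxed libraries, which favours a lower value in knockout. Vgll4, which represses TEAD targets, averaged 20.8 ± 5.84 FPKM in knockout and 23.7 ± 1.59 FPKM in floxed kidneys (limma adjusted p = 0.501). Vgll1 was at 0.14 FPKM or less in every library, and Vgll2 was not analysed here.

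The 4 other CCN proteins were present at low levels. Ccn4 averaged 1.67 ± 0.761 FPKM in knockout and 4.53 ± 0.311 FPKM in floxed kidneys, without overlap (log2 fold change -1.09, limma adjusted p = 0.0687). Ccn5 averaged 0.447 ± 0.378 and 1.32 ± 0.302 FPKM (limma adjusted p = 0.139). It reached 1 FPKM in floxed libraries alone, so the filter itself favoured a lower value in knockout. Ccn3 (0.770 ± 0.654 and 1.03 ± 0.626 FPKM) and Ccn6 (0.0933 ± 0.0231 and 0.143 ± 0.0306 FPKM) were not tested. Of the other muscle ankyrin repeat genes, Ankrd23 averaged 4.94 ± 1.07 FPKM in knockout and 6.91 ± 1.37 FPKM in floxed kidneys (limma adjusted p = 0.227), and Ankrd2 was at 0.32 FPKM or less in every library.

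SRF and its MRTF cofactors respond to actin and share targets with YAP. Of 11 genes 10 were tested and 0 passed the limma test, while all 10 were below 0 and 6 were lower at an unadjusted p under 0.05, with a median of -0.75, where 65.4% of all genes were below 0 and 16.3% lower at that p. Srf itself averaged 8.93 ± 1.26 FPKM in knockout and 15.3 ± 2.64 FPKM in floxed kidneys (limma adjusted p = 0.0839). The smooth muscle genes Tagln (38.5 ± 27.2 and 113 ± 16.1 FPKM, limma adjusted p = 0.0933) and Myl9 (30.4 ± 16.8 and 68.7 ± 12.2 FPKM, limma adjusted p = 0.106) followed.

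**Figure D4:**
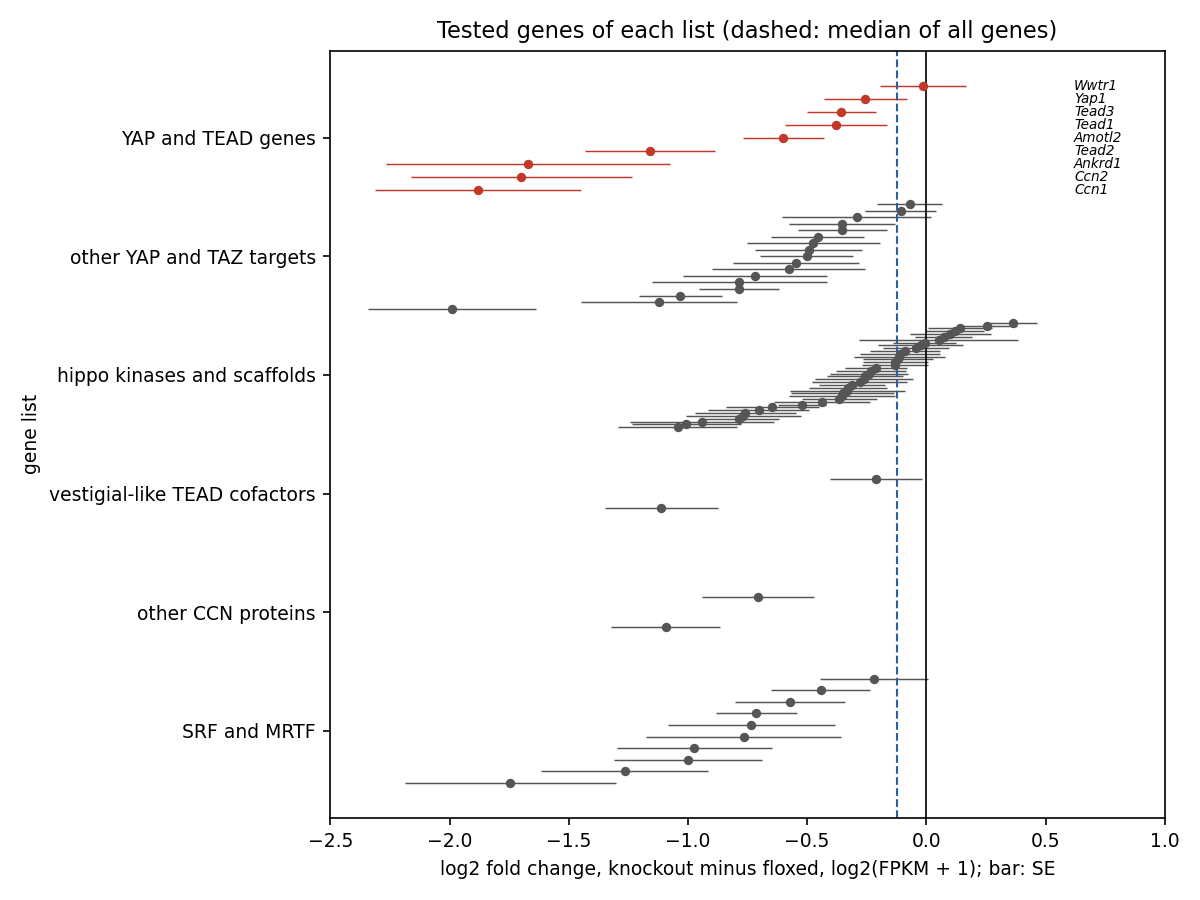
Log2 fold change, knockout minus floxed on the log2(FPKM + 1) scale, with its SE (bars), for each tested gene of the set (red, named at right in the order of the points) and of 5 pathway lists (grey). The dashed line is the median of all tested genes, -0.12, and Ccn1, Ccn2 and Ankrd1 lie between -1.88 and -1.67.

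How many of these genes passed depended on knockout replicate 3. Without it 4 of the 9 passed the limma test as lower (Ccn1, Ccn2, Tead1 and Tead2), where 15.4% of all genes passed as lower and 9.02% as higher. Likewise 11 of the 17 other YAP and TAZ targets passed as lower, 11 of the 38 kinases and scaffolds as lower and 1 as higher, and 9 of the 10 SRF and MRTF genes as lower. The library was left out here for its place near the floxed group, a choice that by itself raises the counts. With array weights, which give each library its own weight, 4 of the 9 passed as lower (Ccn1, Ccn2, Tead2 and Amotl2), where 6.48% of all genes did.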

How the data were processed

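Whole-kidney RNA sequencing gave 1 library per sample, 3 knockout and 3 floxed. Total RNA was extracted with TRIzol, per the labels' protocols. The deposited values are FPKM per gene made by the authors, per the file headers, and carry 2 decimals. The genome build was mm9 according to the submitters' processing notes. Aligner, counter, annotation and strand use are, in the sources used here, not given, so how reads of overlapping or near-identical genes were assigned is unknown. FPKM is relative to all mapped fragments, so abundant genes can shift the rest. Replicate numbers and groups came from the sample titles. Nothing states that libraries came from separate mice, so a p-value reflects only variation among the 6 samples, which may be technical. No 2 libraries held identical values.

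There were 26 symbols in date form, which were put right by Entrez identifier. Depth was searched between 8000000 and 24000000 fragments as the value at which most low values of single-transcript genes of 300 to 2000 nucleotides (GENCODE lengths) lay within 0.2 of a whole fragment. The share at the best value in that range was 58.2% to 66.5%. Multiples of the true depth can score alike. With the search extended to 32000000, floxed replicate 1 scored higher at 31900000 (62.9%) than at 16250000 (59.5%), and so its depth is uncertain.

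The 13390 genes that reached 1 FPKM in 3 or more libraries were fitted on log2(FPKM + 1) by limma 3.58.1 (R 4.3.3). The model held the group alone and used a mean-variance trend. Tests were two-sided, with Benjamini-Hochberg adjustment over all these genes and a threshold of 0.05. This scale understates changes of low genes. With 3 against 3 libraries an exact permutation test cannot go below 0.1 and was not used. Python 3.11.15 with pandas 2.3.3 and matplotlib 3.10.9 made tables and plots. Promoter sequences were RefSeq's, matched by symbol, and their GRCm38.p6 coordinates were not joined to the mm9 values. The genes, the lists and the alternatives were chosen with earlier results of these data known. The text names all 10 genes, Abl1, Abl2, Cdh16, Col1a1 and Acta2, the 3 smallest p of each pathway list (all genes of lists of 4 or fewer) and the 3 genes nearest in profile to the gene of widest range. Lats1, Stk3, Stk4 and Crb3 were added after their values were seen, and Ptpn14 is named only as a gene in both lists. A planned comparison of protein sequences was not made.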

Additional observations from a re-analysis of the deposited data

How the results depend on the processing

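Among the 9 tested genes, 0 passed with all libraries, and 0 under both smaller pseudocounts, no filter, mean FPKM of at least 5, TPM, median-ratio or quantile scaling, no trend and the replicate block. With array weights, whose estimate stopped before its tolerance was reached, 4 passed as lower (Ccn1, Ccn2, Tead2 and Amotl2), where 6.48% of all genes did. Leaving out each library gave 0 to 4, the 4 arising without knockout replicate 3. Over all genes the count of 9 became 1 with a pseudocount of 0.1 or 0.01, no filter, mean FPKM of at least 5, median-ratio scaling, quantile scaling or no trend, 2 with the replicate block, 1456 with array weights and 0 to 3271 with a library left out (0 without floxed replicate 2 or 3, where an unadjusted limma p under 0.05 held for 2298 and 2146 genes). The log2 fold change of Wwtr1 turned positive with median-ratio scaling (0.14), quantile scaling (0.079), without floxed replicate 3 (0.10), without knockout replicate 1 (0.08) and without knockout replicate 2 (0.03), and over the libraries left out it ranged from -0.16 to 0.10. The other 8 genes stayed below 0 in all 16 alternatives. Ccn1 ranged from -2.35 to -1.57, Ccn2 from -2.24 to -1.39, Ankrd1 from -2.35 to -1.21, Tead2 from -1.44 to -0.88 and Amotl2 from -0.77 to -0.44. Median-ratio scaling moved the median of all genes from -0.12 to 0.02, so Yap1, at -0.26 and then -0.10, lay near that median under both. Deviations of same-numbered libraries correlated at -0.13, -0.07 and 0.03 across genes, which does not settle pairing for single genes. Yap1, Wwtr1, Ccn2 and Ankrd1 rose with replicate number in both groups, and the other genes of the set did not. Under the block the limma adjusted p fell for Ankrd1 (0.155 to 0.0827) and Ccn2 (0.102 to 0.0818). It also fell for Yap1 (0.378 to 0.341), Wwtr1 (0.965 to 0.957) and Ccn1 (0.0797 to 0.0784). It rose for Tead2 (0.0820 to 0.106), Amotl2 (0.110 to 0.136), Tead3 (0.190 to 0.287) and Tead1 (0.303 to 0.317). With the block 2 genes of the whole table and 0 of the 9 passed. The causes of these shifts were not tested. Depth limits Tead4, Vgll1, Ccn6 and Ankrd2, where few fragments stand behind a value.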
